A study of Drosophila melanogaster with 7 samples.

Results

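Chromosome 4 of Drosophila melanogaster was followed here through every replication call placed on it in S2 cells, a line derived from fly embryos. The members were taken by position alone: all fork, origin, termination, EdU segment and BrdU segment calls on chromosome 4 in the 5 untreated pulse libraries, and the origin calls there in a BrdU gradient library. They numbered 937 of 97722 calls in those 6 libraries (97800 in all 7 libraries), made up of 299 forks, 19 origins, 22 terminations, 302 EdU segments, 288 BrdU segments and 7 gradient origins. The arms 2L, 3L and 3R, with 20564 forks, 1027 origins and 1269 terminations in the same pulse libraries, served for comparison.

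Cells in all pulse libraries received 10 µM EdU and then 10 µM BrdU, both thymidine analogues, followed by 20 min in 50 µM thymidine, and single DNA molecules were read by Nanopore sequencing. EdU and BrdU were given for 7 and 15 min in the control and in replicates 1 and 2, and for 3 and 6 min in replicates 3 and 4. The gradient library came from cells given BrdU alone, in steps of 0.5 µM lasting 2.5 min each, which reached 12 µM after 1 hr and stayed there for 30 min. A further library, treated with HU as the labels abbreviate it, had 26 forks, none of them on chromosome 4, and was not used. Pairs of flasks labelled together were combined, so each library is a pool of cells. Whether replicates were separate cultures is not in the labels, so p-values reflect the spread between these libraries alone, and that spread may be technical. In the labels replicates 1 and 2 share a batch, replicates 3 and 4 share another, and the control shares one with the HU library. Each comparison below was made within a library.

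Chromosome 4, the dot chromosome or Muller element F, is the smallest autosome of the fly. It is known for a mixture of heterochromatin and active genes: HP1a and the chromosome-specific protein Pof bind much of it, its genes sit among repeats, and meiotic crossing over is normally absent. Replication starts at origins, from which a leftward and a rightward fork move apart, and ends at terminations, where converging forks meet. In a pulse experiment a fork leaves an EdU stretch followed by a BrdU stretch, which gives its direction, so leftward forks tend to lie below an origin in coordinate and rightward forks above it.

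Reads with a fork reached position 1304453 on dm6, and fork tracks covered 89.1% of the 1.30 Mb up to there. The longest stretch with no track, 27.4 kb from 303195 to 330632, ran from Syt7, a synaptotagmin gene, through Rad23, Zip102B and Rnf11 into PMCA, the plasma membrane calcium pump. Protein-coding genes filled 78.1% of the chromosome and 66.5% of 2L, 3L and 3R, although there were only 61.3 of them per Mb on chromosome 4, against 105 per Mb on the arms. Chromosome 4 held 14 forks of the control, 103 and 130 of replicates 1 and 2, and 28 and 24 of replicates 3 and 4. Those were between 0.756% and 1.02% of the forks of a library. The precision of every value below is limited by these counts, above all in the control and the 3 and 6 min libraries.

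Forks were somewhat thinner on chromosome 4 than on the arms. The density was 10.7 forks per Mb on chromosome 4 and 14.8 on the arms in the control, 79.0 and 82.5 in replicate 1, and 99.7 and 103 in replicate 2. In the short-pulse libraries it was 21.5 forks per Mb on chromosome 4 and 23.7 on the arms in replicate 3, and 18.4 and 21.8 in replicate 4. The density was lower on chromosome 4 in 5 of 5 libraries, with a mean log2 ratio of -0.19 ± 0.17 (SD, n = 5), a density 0.876 times that of the arms (exact two-sided sign-flip test over libraries, p = 0.062, the smallest that 5 libraries allow; 0.234 after Benjamini-Hochberg adjustment over 15 measures). No measure in this account could reach 0.05 by this test. Against 3L alone the log2 ratio was -0.05 ± 0.14 (SD, n = 5), and against stretches of equal length next to the centromeres of the arms it was 0.23, so it was not lower than in the centromere-proximal stretches. Only reads with calls were in the files, and copy number, read coverage and the share of cells replicating the chromosome cannot be told apart.

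Fork tracks, the whole labelled stretch from the start of EdU to the end of BrdU, were shorter on chromosome 4 in 5 of 5 libraries. In the control the 14 tracks on chromosome 4 ran from 3.95 to 28.9 kb with a median of 11.8 kb, against a median of 13.96 kb on the arms. Replicate 1 had medians of 13.3 kb on chromosome 4 and 13.9 kb on the arms, and replicate 2 had 11.9 and 15.1 kb. Within each of these libraries the range of single forks on chromosome 4 lay inside that of the far more numerous forks on the arms. In replicate 1 tracks spread from 3.91 to 36.2 kb on chromosome 4 and from 2.135 to 71.1 kb on the arms. In replicate 2 the ranges were 4.17 to 42.9 kb and 2.348 to 81.49 kb. With the shorter pulses the medians were 7.43 kb on chromosome 4 and 8.38 kb on the arms in replicate 3, and 8.53 and 8.83 kb in replicate 4. The mean log2 ratio was -0.17 ± 0.13 (SD, n = 5), a track 0.886 times as long (exact sign-flip test, p = 0.062, adjusted p = 0.234). Each of the 3 arms alone gave a shorter median on chromosome 4 in 5 of 5 libraries, with log2 ratios of -0.18 against 2L, -0.16 against 3L and -0.18 against 3R.

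**Figure D1:**
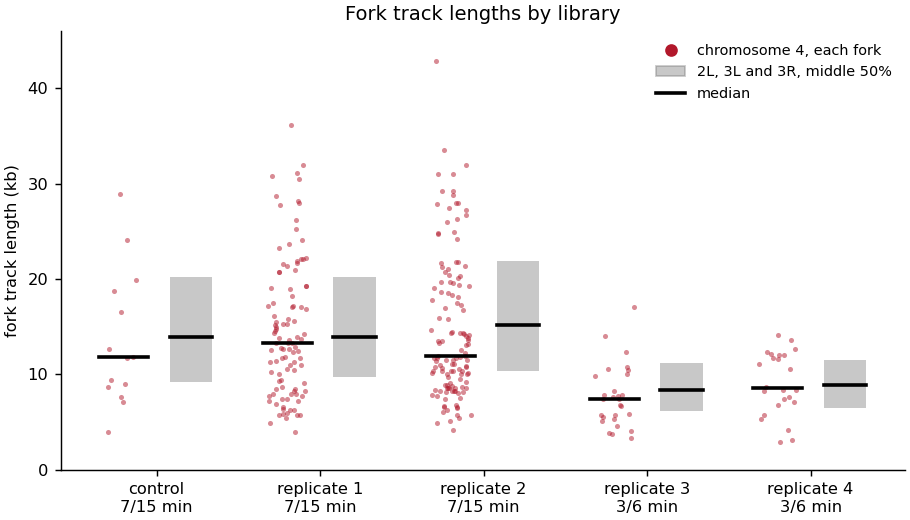
Fork track length in kb for each library. Points are single forks on chromosome 4, grey boxes span the 25th to 75th percentile of forks on 2L, 3L and 3R, and black lines are medians; the chromosome 4 median lies below that of the arms in 5 of 5 libraries, while most points fall within the spread of the arms.

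Read length moved with track length in part of these libraries; its part in the track lengths was not tested. Reads with a fork had median lengths of 45.7 kb on chromosome 4 and 55.9 kb on the arms in replicate 2, and of 22.4 and 28.4 kb in replicate 3. In replicate 4 the order was the opposite, with 42.5 kb on chromosome 4 and 34.5 kb on the arms, and in the control the medians were 56.0 and 55.9 kb. With reads of at least 50 kb alone the log2 ratio of track lengths was -0.16 over the 4 libraries that kept 5 or more chromosome 4 forks. In the 7 and 15 min libraries together, reads of 100 kb or more carried 7.29% of the forks on chromosome 4 and 17.1% of those on the arms, and the median tracks on them were 11.4 kb on chromosome 4 (18 forks) and 17.8 kb on the arms (2866 forks). On reads of 30 to 60 kb the medians were 13.6 kb on chromosome 4 (118 forks) and 14.1 kb on the arms, and on those of 60 to 100 kb 15.9 kb on chromosome 4 (70 forks) and 17.2 kb on the arms. On reads under 30 kb the medians were 10.3 kb on chromosome 4 (41 forks) and 10.0 kb on the arms. In the 3 and 6 min libraries, reads of 30 to 60 kb had the longer median on chromosome 4, 10.2 kb (18 forks) against 8.86 kb on the arms. Reads under 30 kb had the shorter one, 7.45 kb (25 forks) against 8.13 kb. So did reads of 60 to 100 kb, 7.66 kb (7 forks) against 9.08 kb, and of 100 kb or more, 6.41 kb (2 forks) against 9.13 kb.

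A fork was taken as complete where both of its ends lay 5 kb or more inside the read and no origin or termination was within 1 kb. Complete forks gave no clear difference. Only 70 forks on chromosome 4 were complete, and 4 libraries had 5 or more of them. The medians were 10.2 kb on chromosome 4 and 14.1 kb on the arms in the control, 13.6 and 15.1 kb in replicate 1, 14.2 and 16.1 kb in replicate 2, and 11.9 and 8.65 kb in replicate 4. The last library, with 6 complete forks on chromosome 4, went the other way, and the mean log2 ratio was -0.09 ± 0.39 (SD, n = 4; exact sign-flip test, p = 0.625). Without the control, which also had 6 complete forks there, the mean was 0.04.

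The EdU part of forks had medians of 4.57 kb on chromosome 4 and 5.31 kb on the arms in the control, 4.93 and 5.43 kb in replicate 1, 5.25 and 6.13 kb in replicate 2, and 3.00 and 3.46 kb in replicate 3. In replicate 4 it was the longer one on chromosome 4, with 3.52 kb against 3.34 kb on the arms. The mean log2 ratio was -0.14 ± 0.13 (SD, n = 5; exact sign-flip test, p = 0.12). The BrdU part, laid down second, had medians of 4.18 kb on chromosome 4 and 6.31 kb on the arms in the control, 5.59 and 6.07 kb in replicate 1, 5.39 and 6.57 kb in replicate 2, 2.85 and 3.29 kb in replicate 3, and 4.05 and 3.82 kb in replicate 4. Its mean log2 ratio was -0.22 ± 0.25 (SD, n = 5; exact sign-flip test, p = 0.12), and -0.13 without the control. The same 4 of 5 libraries were therefore lower on chromosome 4 in both parts.

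Called segments, which are listed whether or not they were joined into a fork, gave similar values. Their numbers on chromosome 4, 302 EdU and 288 BrdU, are close to its 299 forks, and they are not independent of the fork parts. EdU segments on chromosome 4 were shorter in 4 of 5 libraries, with a mean log2 ratio of -0.16 ± 0.12 (SD, n = 5; exact sign-flip test, p = 0.12). BrdU segments were shorter in 5 of 5, with -0.26 ± 0.24 (SD, n = 5; exact sign-flip test, p = 0.062, adjusted p = 0.234), from -0.65 in the control to -0.00 in replicate 4, and -0.16 on average without the control. Within single forks the BrdU to EdU length ratio had medians of 0.891 on chromosome 4 and 1.19 on the arms in the control. The other 4 libraries lay closer together, with ratios from 0.928 to 1.12 on chromosome 4 and from 0.957 to 1.18 on the arms. The mean log2 difference was -0.14 ± 0.16 (SD, n = 5; exact sign-flip test, p = 0.062, adjusted p = 0.234), lower on chromosome 4 in 5 of 5 libraries. Without the control it was -0.07, and with reads of at least 50 kb alone it was 0.03 over 4 libraries.

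**Figure D2:**
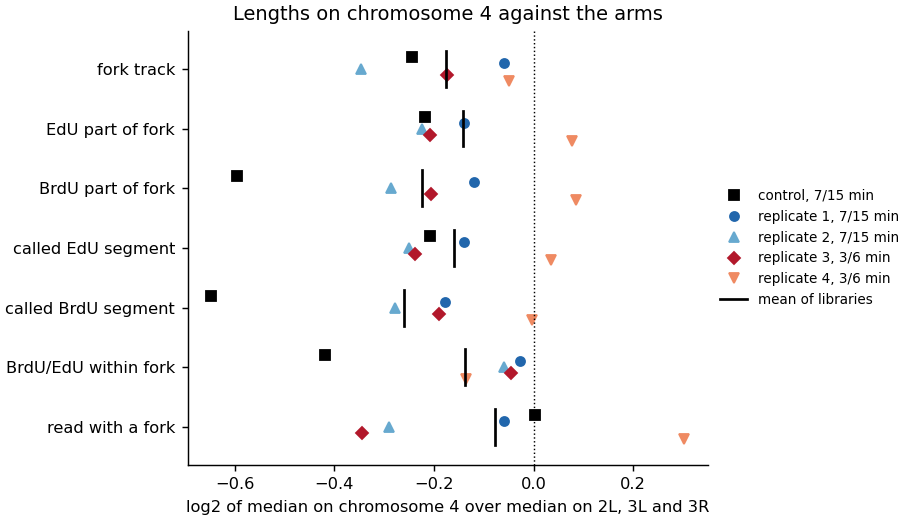
Log2 of the median length on chromosome 4 over that on 2L, 3L and 3R (x axis) for 7 length measures (y axis), 1 symbol per library, with a vertical bar at the mean over libraries. Fork tracks lie left of 0 in 5 of 5 libraries, while reads with a fork lie on both sides.

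The authors' files give a stall score between 0 and 1 for part of the forks, and a code below 0 in its place for the rest. On chromosome 4, 118 of 299 forks were scored, 39.5%, against 42.7% of the forks on the arms. The share scored was lower on chromosome 4 in 4 of 5 libraries, by 3.59 ± 3.84 percentage points (SD, n = 5; exact sign-flip test, p = 0.1875). A score of at least 0.5 was found for 27 of the 118, which is 22.9% (95% Wilson interval 16.2 to 31.2%), against 22.1% (21.2 to 23.0%) on the arms. The 2 deep libraries had 10 of 44 and 11 of 55 such forks on chromosome 4, or 22.7% and 20.0%, against 18.2% and 20.5% on the arms. The control had 4 of 7 on chromosome 4, 57.1% against 25.0% on the arms, and replicate 4 had 2 of 8, 25.0% against 45.1%. Replicate 3 had 0 of 4, too few to enter. Over the 4 libraries with 5 or more scored forks the mean difference was 4.0 ± 21.6 percentage points (SD, n = 4; exact sign-flip test, p = 0.75), and without the control it was -5.36. No difference in stalling between chromosome 4 and the arms was detectable at this depth.

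Ends of these 27 forks met in 4 tiles of 10 kb that held ends of more than 1 library. The tile from 910001 to 920000, at the distal end of unc-13, a gene for synaptic vesicle priming, had 3 such ends. There, rightward forks of replicate 2 and of the control ended at 910050 and 912082, with scores of 0.726 and 1.0, and a leftward fork of replicate 2 ended at 912092 with a score of 0.871. A leftward fork of replicate 1 had its end close by, at 907247, with a score of 0.850. Other shared tiles lay near PlexB, a semaphorin receptor gene, with leftward ends of replicates 1 and 2, in and beside anne with rightward ends of replicate 1 and the control, and where CG32017 and Kif3C, a kinesin gene, overlap, with leftward ends of replicates 2 and 4. Of 22 tiles with such an end, the other 18 had ends of a single library. Shared tiles were not counted on the arms, so whether 4 of 22 is more than elsewhere is not known.

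Fork direction varied along chromosome 4 in blocks. Over all forks the directions balanced, with 148 leftward and 151 rightward forks, 49.5% leftward (95% Wilson interval 43.9 to 55.1%), against 50.3% (49.6 to 50.9%) on the arms. Single libraries had 50.0, 51.5, 49.2, 35.7 and 58.3% leftward forks on chromosome 4 in the control and replicates 1 to 4, against 48.4, 50.2, 50.2, 50.4 and 51.6% on the arms. The mean difference was -1.21 ± 8.05 percentage points (SD, n = 5; exact sign-flip test, p = 0.9375), and without replicate 3, with 10 leftward forks of 28, it was 2.15. In windows of 100 kb, however, the share of leftward forks went as high as 90.0% and as low as 16.7%.

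**Figure D3:**
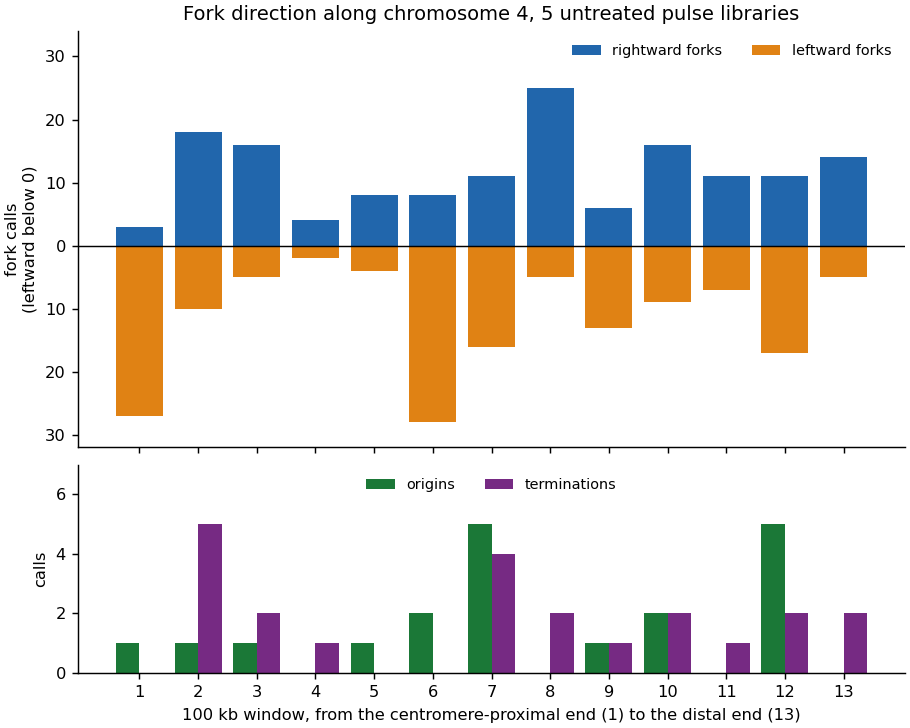
Fork calls (upper panel, rightward above and leftward below 0) and origin and termination calls (lower panel) in 13 windows of 100 kb along chromosome 4, pooled over the 5 untreated pulse libraries. Leftward forks dominate windows 1 and 6, rightward forks windows 3 and 8, and 7 of 19 origins lie in windows 6 and 7.

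The first window, next to the centromere-proximal end, had 27 leftward and 3 rightward forks, 90.0% leftward (95% Wilson interval 74.4 to 96.5%). Replicate 1 had 12 leftward and 0 rightward forks there, replicate 2 had 11 and 3, replicate 4 had 3 and 0, and the control had 1 and 0. The next windows were mostly rightward: 10 leftward and 18 rightward forks from 100001 to 200000, and 5 and 16 from 200001 to 300000. The next pair of windows held few forks, 2 leftward and 4 rightward from 300001 to 400000, and 4 and 8 from 400001 to 500000. From 500001 to 600000 the direction was leftward again, with 28 leftward and 8 rightward forks (77.8%, 61.9 to 88.3%), made up of 8 and 3 in replicate 1, 15 and 3 in replicate 2, 2 and 1 in the control, 1 and 1 in replicate 3, and 2 and 0 in replicate 4. The window from 600001 to 700000 was mixed, with 16 leftward and 11 rightward forks. It was followed from 700001 to 800000 by 5 leftward and 25 rightward forks (16.7%, 7.34 to 33.6%), of which 1 and 11 came from replicate 1 and 2 and 10 from replicate 2. Further towards the telomere the windows alternated less sharply, with 68.4% leftward from 800001 to 900000, 36.0 and 38.9% in the 2 windows up to 1100000, 60.7% from 1100001 to 1200000 and 26.3% beyond.

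The share of windows with mostly one direction depended on the window size. Of 12 windows of 100 kb on chromosome 4 with at least 10 forks, 2 had at least 75% leftward forks and 2 at most 25%, 16.7% each and 33.3% together. On 2L, 3L and 3R the same held for 20.2% and 19.3% of 792 windows, 39.5% together. With windows of 50 kb it was 22.2% of 18 windows on chromosome 4 and 48.8% of 1108 on the arms, and with 200 kb 0 of 7 and 18.1% of 414. The mean distance of a 100 kb window from 50% leftward was 20.5 percentage points on chromosome 4 and 21.0 on the arms. In replicates 1 and 2, the deep libraries, the leftward shares correlated across 10 windows of chromosome 4 with at least 5 forks in each (Pearson r = 0.708, Spearman rho = 0.760), and across 637 windows of the arms (r = 0.788, rho = 0.791). These are correlations across neighbouring windows of the same libraries, which are not independent replicates. A measure chosen after the data were seen, the share of forks of the other libraries in the same window that ran the same way as a fork, averaged 59.2% ± 1.58 on chromosome 4 and 60.6% ± 1.24 on the arms (SD, n = 5 libraries), a difference of -1.40 ± 1.09 percentage points, lower on chromosome 4 in 4 of 5 libraries (exact sign-flip test, p = 0.12). Libraries share forks in this measure, so its 5 values are not independent.

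**Figure D4:**
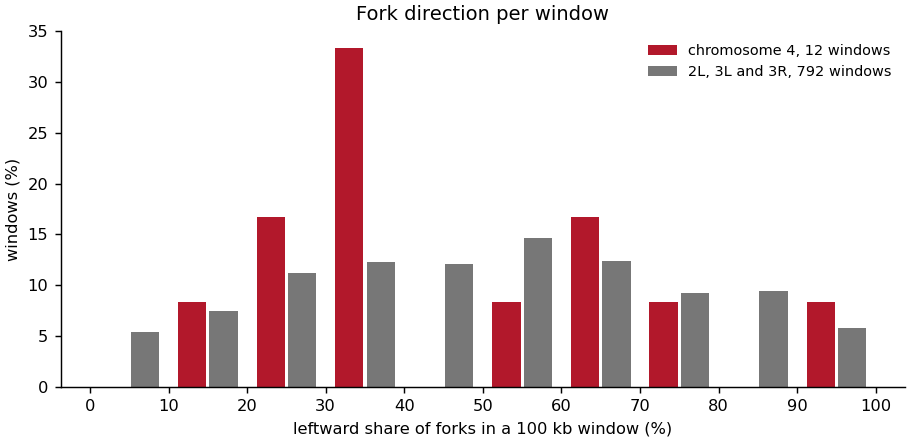
Share of leftward forks (x axis, %) in windows of 100 kb with at least 10 forks, as percent of windows (y axis), for 12 windows of chromosome 4 and 792 of 2L, 3L and 3R. Both sets spread widely on either side of 50%.

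Split at its midpoint, position 652226, the chromosome had 42.6% leftward forks on the distal and 58.9% on the proximal side in replicate 1, and 35.9% and 62.1% in replicate 2. The other libraries, with 5 to 19 forks a side, had 60.0% on the distal and 44.4% on the proximal side in the control, 36.8% and 33.3% in replicate 3, and 53.8% and 63.6% in replicate 4. The mean difference was -6.66 ± 16.4 percentage points (SD, n = 5; exact sign-flip test, p = 0.4375). Both deep libraries had fewer leftward forks on the distal side, and with the forks of all libraries pooled the difference was -17.7 points. It was -12.2 points without the control and -4.23 and -1.78 points without replicate 1 or replicate 2, so its size rested on the library weights.

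Several genes were crossed in a single direction. Of 80 protein-coding genes on the chromosome, 75 were crossed by at least 1 fork track and 46 by at least 5. Of these 46, 10 had at least 75% leftward tracks (21.7%) and 12 at most 25% (26.1%), 47.8% together, against 28.6% and 26.8% of 4321 such genes on the arms, 55.4% together. Neighbouring genes share tracks, so these counts are not independent. A list of 40 better known genes of the chromosome, all matched in the gene table, had 26 members with at least 5 tracks. Of these 26, 10 were mostly leftward and 7 mostly rightward, out of the 10 and 12 among all 46 genes. The list was chosen with earlier results of these data known and held every mostly leftward gene, so its counts are no separate result.

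The gene with most tracks was bt, which encodes the giant muscle protein projectin: 20 of 24 tracks over its 52.1 kb ran rightward, in 4 libraries. On the other side of the mixed window zfh2, a zinc finger homeodomain factor, was crossed by 17 leftward and 0 rightward tracks in 4 libraries (95% Wilson interval for leftward 81.6 to 100%). Tdg, a thymine DNA glycosylase gene that overlaps zfh2, had 13 leftward and 0 rightward tracks. PlexB, near the centromere-proximal end, also had 13 leftward and 0 rightward tracks, in 3 libraries. Cadps, a vesicle exocytosis gene at the distal end, had 14 rightward of 18 tracks, and toy, a Pax6 gene of eye development, 10 rightward of 13.

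Other genes among the 10 with most tracks were crossed both ways. CG32017 had 8 leftward of 14 tracks, Kif3C 9 of 13, unc-13 5 of 13 and CG33978 4 of 12. Chosen after their values were seen, ey, the other Pax6 gene, had 10 rightward of 11 tracks, and ci, the transcription factor of Hedgehog signalling, had 8 leftward and 0 rightward tracks. Sox102F, a Sox factor, and sv, a Pax2 homologue, chosen in the same way, each had 6 leftward of 7 tracks. The gene table gives no strand, so whether forks ran with or against transcription was not analysed here.

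Origins were called 19 times on chromosome 4, at 6.35 per 100 forks (95% Wilson interval 4.11 to 9.71), against 4.99 (4.71 to 5.30) on the arms. There was 1 in the control, 9 in replicate 1, 7 in replicate 2, and 1 each in replicates 3 and 4. Per 100 forks that was 7.14 on chromosome 4 and 5.09 on the arms in the control, 8.74 and 4.79 in replicate 1, 5.38 and 5.42 in replicate 2, 3.57 and 2.97 in replicate 3, and 4.17 and 5.88 in replicate 4. The value was higher on chromosome 4 in 3 of 5 libraries, by 0.97 ± 2.14 on average (SD, n = 5; exact sign-flip test, p = 0.375). The mean difference was 0.23 without replicate 1 and 1.64 without replicate 4. It was 2.82 against distal stretches of the arms and -1.74 against centromere-proximal ones. The intervals of chromosome 4 and the arms overlapped in each library, and intervals cover counting error only. These intervals are approximate, since origins are not a subset of the forks they are set against.

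**Figure D5:**
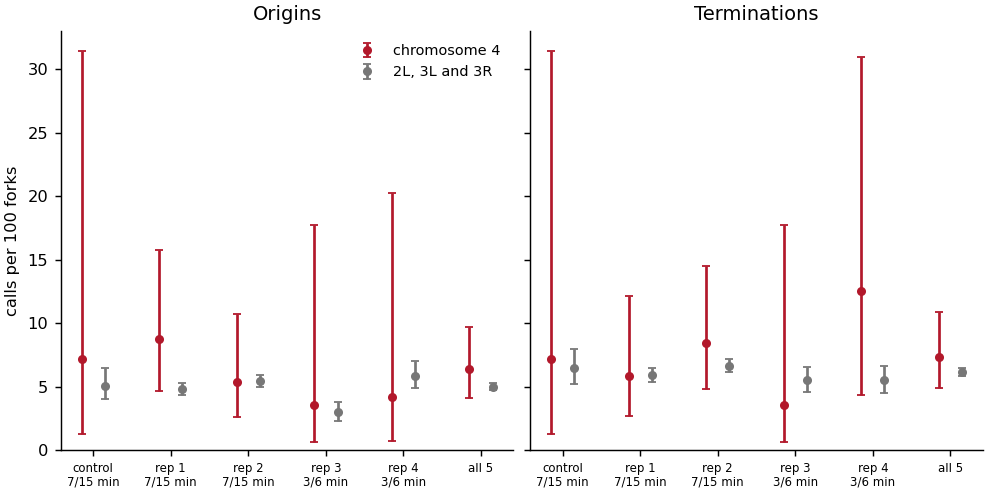
Origins (left) and terminations (right) per 100 forks for each library and for all 5 pooled, on chromosome 4 and on 2L, 3L and 3R, with 95% Wilson intervals for counting error. The intervals of chromosome 4 span those of the arms or overlap them in each library.

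Between zfh2, crossed leftward, and bt, crossed mostly rightward, 7 origin midpoints lay from 580586 to 674561, all in replicates 1 and 2. Origins are called from diverging forks, so these calls and the fork directions beside them are not independent. Those nearest zfh2 were at 580586 in replicate 2 and 580927 in replicate 1, 0.464 and 0.805 kb outside Ephrin, the gene of the Ephrin ligand. Next came a very wide call of replicate 1, 150 kb across, with its midpoint at 617774 inside Eph, the gene of the Ephrin receptor. It was followed by 625670 inside mav, a TGF-beta ligand gene, by 661039 inside CG46466, and by 674160 and 674561 inside CG11360, the last pair from replicates 2 and 1.

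At the proximal end the only origin below 100000 was one of replicate 2, 14.3 kb wide with its midpoint at 62471, which was 2.75 kb from RpS3A, a ribosomal protein gene. Its midpoint lay on the telomeric side of PlexB and ci, which were crossed leftward. Leftward tracks were also found beyond it, 4 of 5 over RpS3A and 5 of 11 over pan. Further on, the control had an origin at 178808 inside Arl4, a small GTPase gene. Replicate 1 had one at 230419 inside yellow-h, a member of the yellow family, and replicate 2 one at 460572 inside Taf3, a subunit gene of the general transcription factor TFIID.

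In the distal part an origin of replicate 2 at 869885 lay inside unc-13. Origins of replicate 1 at 960391 and of replicate 3 at 972724 lay beside and inside fuss, a gene of the Ski and Sno family of corepressors. From 1123157 to 1129968 there were 3 origins, that of replicate 4 inside Cals, a calsyntenin gene, and those of replicate 1 outside and inside CG11155. Both origins near pho, the gene of a DNA-binding Polycomb group protein, were from replicate 2, at 1182443 and 1182575. Of the 14 tiles of 10 kb with an origin, 3 had origins of more than 1 library: those beside Ephrin, in CG11360 and at CG11155. The matching share on the arms was not counted.

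Origin midpoints lay inside a protein-coding gene in 12 of 19 cases, 63.2% (95% Wilson interval 41.0 to 80.9%), against 63.8% on the arms. Genes filled 78.1% of chromosome 4 and 66.5% of the arms. Midpoints were within 1 kb of a gene end in 11 of 19, 57.9% (36.3 to 76.9%), against 44.8% (41.8 to 47.9%) on the arms, a difference within the counting error. A call with a gap is placed by its midpoint alone, which cannot locate an origin to 1 kb. Pooled over libraries, calls on chromosome 4 had a median gap of 14.3 kb between the EdU segments, against 6.13 kb on the arms. Zero width was found for 6 of 19, against 465 of 1027. The median gaps on chromosome 4 and the arms were 21.6 and 11.25 kb in replicate 1 and 14.3 and 5.13 kb in replicate 2. The control had 0.0 and 13.6 kb, and it and replicates 3 and 4 had 1 call each on chromosome 4. The difference in width was not tested. Both sister forks were found for each of the 19 origins on chromosome 4. Their lengths differed by a median of 0.32 on the log2 scale, against 0.42 over 997 pairs on the arms, where not all of the 1027 origins had a pair. The origin in Arl4 had sister tracks of 18.7 kb to the left and 19.9 kb to the right, while that in CG46466 had 18.3 and 30.5 kb. The Arl4 rightward track ran to 198734 on a read that ended at 198743, and its leftward sister had a stall score of 1.0. The 18.3 kb track ended at 642774, where it met another fork. Tracks cut in these ways were not left out of the sister medians.

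Terminations were called 22 times on chromosome 4, at 7.36 per 100 forks (95% Wilson interval 4.91 to 10.9), against 6.17 (5.85 to 6.51) on the arms. The control had 1, replicates 1 and 2 had 6 and 11, and replicates 3 and 4 had 1 and 3. Per 100 forks that was 7.14 on chromosome 4 and 6.46 on the arms in the control, 5.83 and 5.92 in replicate 1, 8.46 and 6.63 in replicate 2, 3.57 and 5.49 in replicate 3, and 12.5 and 5.49 in replicate 4. The mean difference was 1.50 ± 3.37 (SD, n = 5; exact sign-flip test, p = 0.5), and without replicate 4, with 3 calls over 24 forks, it was 0.12. Without replicate 3 it was 2.36, and with reads of at least 50 kb alone 4.42 over 4 libraries.

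The region from 100001 to 300000, between the leftward forks of the proximal end and the sparse windows in the middle, held 7 of the 22 terminations. Its 2 windows held 28 and 21 of the 299 forks. Most of the 7 were calls of replicate 2, and the region was chosen after the calls were seen. They lay from 107488 inside pan, the TCF factor of Wnt signalling, through 128579 inside Ank, an ankyrin gene, to 258826 inside RhoGAP102A. Tiles shared by more than 1 library were those in onecut, a homeodomain factor gene, with terminations of replicates 2 and 1 at 603601 and 606199, and in Cadps, with 1250871 and 1256519 in the same libraries. How often tiles were shared on the arms was not counted. Terminations fell inside protein-coding genes in 19 of 22 cases, 86.4% (95% Wilson interval 66.7 to 95.3%), against 67.9% (65.3 to 70.4%) on the arms, where genes also fill less of the sequence. Of the 22 calls on chromosome 4, 20 had zero width, against 921 of 1269 on the arms.

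Single molecules showed origins and terminations side by side. Of 258 chromosome 4 reads with a fork, 36 carried 2 or more, 13.95% (95% Wilson interval 10.3 to 18.7%), against 11.02% (10.6 to 11.5%) on the arms. A read of replicate 1, 93.5 kb from 610847 to 704305, held 4 forks. A leftward track of 13.7 kb and a rightward track of 17.1 kb left the origin at 625670 in mav. The rightward one met, at 642774 inside Ekar, a leftward track of 18.3 kb from the origin at 661039, whose other fork ran rightward for 30.5 kb. A control read of 98.4 kb carried a rightward fork with a stall score of 0.767 and, beyond a gap of 16.2 kb called as a termination, a leftward fork with a score of 1.0 that came from the origin in Arl4. On a replicate 2 read of 58.2 kb, forks converged on a termination with its midpoint at 1163076 in Kif3C, and the leftward one came from the origin at 1182575 beside pho.

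The gradient library placed 7 of its 1529 origins on chromosome 4, 0.458% (95% Wilson interval 0.222 to 0.942%), against 19 of 1513 pulse origins, 1.26% (0.805 to 1.95%). Per Mb that was 5.37 gradient origins on chromosome 4, against 13.6, 10.9 and 11.8 on 2L, 3L and 3R, a density 0.447 times that of the arms. There was 1 gradient library and therefore no test. Copy number, read coverage and origin use cannot be told apart in this density. The 7 calls lay on 5 reads, so they are not independent and the interval may be too narrow. They fell inside JYalpha, a sodium pump gene, and 9.66 kb beyond it, at 477137 and 483033 inside Asator, a kinase gene, at 953287 inside 4E-T, a translation regulator gene, at 1023364 inside PlexA and at 1251168 inside Cadps. The calls in Asator lay within the wide pulse origin around Taf3 and that in 4E-T within the pulse origin beside fuss, while the other 4 were from 47.8 to 68.6 kb away from the nearest pulse origin midpoint. None of the 7 lay in the stretch from 580586 to 674561, which held 7 pulse origins. That stretch was bounded by the pulse origins themselves and is a small part of the chromosome, so this absence says little. Distances between gradient and pulse origins on the arms were not computed.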

How the data were processed

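Per the file headers, the authors used DNAscent forkSense, versions 4.0.1 and 4.0.3, for fork, origin and termination calls. Alignment tools named in the submitters' processing notes are minimap2 2.24 and SAMtools 1.10, with build dm6. How gradient origins were called is not given in the sources used here. In the deposited fork files are positions and lengths in bp (other values), 4 fractions that the authors deposited and that were not used, and a stall score of the authors, whose codes below 0 mark forks without a score.

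Calculations ran in Python 3.11.15 (pandas 2.3.3, numpy 2.4.6, scipy 1.17.1), and plots were drawn with matplotlib 3.10.9. Chromosome 4 was compared with 2L, 3L and 3R within each of the 5 libraries, so pulse, batch and caller version were shared by both sides. A library entered where at least 5 chromosome 4 calls qualified. Lengths were compared as log2 ratios of medians and shares as differences, by an exact sign-flip test, two-sided, that can reach no p below 0.062 with 5 libraries or 0.12 with 4, and Benjamini-Hochberg adjustment over 15 measures. The calculation was tested on simulated data. Intervals are 95% Wilson intervals. The length of a chromosome was taken as its furthest read or gene end. Gene spans, without strand or exons, were those of RefSeq on Release 6 plus ISO1 MT, as in dm6. A call was given the protein-coding gene holding its midpoint (for stalled forks the BrdU end), or the nearest. The text names the genes of all origins, those of terminations and stalled ends in 10 kb tiles of more than 1 library, and the 10 genes with most tracks. Other genes were chosen after their values were seen. Members and lists were chosen with earlier results of these data known. No sequence is shown, since no genome was used here. Libraries shared 0 fork reads.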

Additional observations from a re-analysis of the deposited data

Results flagged for a closer look

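Each of 16 measures was checked for a library far from the others in its difference between chromosome 4 and the arms, and 2 had one. The measures share forks, and libraries differ in their number of chromosome 4 forks. How often chance gives such a case was therefore not determined. For the EdU part of forks, the 3 and 6 min replicate 4 stood apart, with a log2 ratio of 0.0769 where the other libraries lay from -0.223 to -0.139. It had 24 forks on chromosome 4, and its reads with a fork were also longer there than on the arms, with medians of 42.5 and 34.5 kb; the part of read length in the EdU value was not tested. For the BrdU to EdU length ratio within forks, the control stood apart, with a log2 difference of -0.419 where the others lay from -0.135 to -0.0276. It rests on 14 forks.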

How the results depend on the processing

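Of 213 alternative values over 16 measures, 199 kept their direction and 14 did not; none crossed a threshold, since p could not go below 0.062. Track length over all forks stayed shorter on chromosome 4 in each of 14 alternatives, with log2 ratios from -0.22 to -0.13. Leaving out each library in turn moved complete tracks from -0.27 to 0.0392 (log2), the stalled share from -5.36 to 12.05 points and the leftward share from -3.21 to 2.15 points. The leftward share also turned against 3L alone (0.230 points), distal stretches (0.836), centromere-proximal stretches (6.44) and with complete forks (14.2 points). Against centromere-proximal stretches origins per 100 forks were -1.74, forks per Mb 0.23 (log2) and read length 0.00099 (log2), the last 0.0079 against distal stretches. The BrdU to EdU ratio was 0.0293 (log2) on reads of at least 50 kb, the stalled share -2.42 points at a threshold of 0.3, and agreement between libraries 10.1 points with complete forks. The cause of these turns was not tested. Every test already pairs chromosome 4 with the arms within a library. No paired analysis was possible because groups share only the replicate number 1, other than this pairing. Depth limits all values: 52 of 299 forks came from the short pulses.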

Other observations

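From the read's strand and the fork's direction, each track can be assigned to leading-strand or lagging-strand synthesis. On chromosome 4, 185 of 299 forks were read as leading, 61.9%, against 63.0% on 2L, 3L and 3R. Lagging-strand tracks were the longer ones on the arms in 5 of 5 libraries. On chromosome 4 they were longer in the control (12.3 kb lagging, 9.18 kb leading), in replicate 3 (7.52 and 6.63 kb) and in replicate 4 (12.0 and 8.39 kb), and not in replicate 1 (13.3 and 13.5 kb) or replicate 2 (11.1 and 13.4 kb), the libraries with most forks. In replicate 2 the arms had 16.1 kb lagging and 14.6 kb leading. The difference between chromosome 4 and the arms in this respect was not tested.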
